A study of Homo sapiens with 6 samples.

Results

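The gene set described here holds 57 genes of the Wnt pathway in Caco-2 cells: ligands, receptors, antagonists, the proteins that control beta-catenin, the TCF/LEF transcription factors, and stem cell genes and targets. Its members were chosen by symbol, with earlier results of these data known, and all 57 were found among the 27685 genes of the table. Caco-2 is an established human colorectal tumour line known for resembling absorptive enterocytes. PolyA RNA was sequenced from Caco-2 cells mock-transfected with the empty plasmid pcDNA3 (vector control, 3 libraries) and from Caco-2 cells carrying hFABP1as, a construct antisense to the fatty acid binding protein gene FABP1 (3 libraries). Both groups share the parent line, and neither carries another labelled allele or agent. The labels do not give the number of transfected lines or clones, nor whether the 3 libraries of a group are separate cultures, so the p-values rest on library-to-library spread alone, which may be technical.

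FABP1 RNA itself was measured, in CPM (read counts scaled to libraries of equal size), at 138, 102 and 121 CPM in the vector control against 134, 147 and 122 CPM in the antisense-labelled libraries. The groups overlapped, and the difference did not pass the test (log2 fold change 0.16, SE 0.12, 95% interval -0.10 to 0.42, edgeR adjusted p = 0.268), so no lower level of FABP1 RNA was measured, and the second group is called the antisense-labelled libraries. As the strand of counting is not stated, reads of the construct and of the gene could not be told apart. The totals ran from 40351394 to 57979037 counts per library. Epithelial markers were abundant in sum: 12 of them summed to 14662 to 17976 CPM in the vector control, against 16494 to 19393 CPM in the antisense-labelled libraries. Most of that was KRT8 (means of 8666 and 9447 CPM) and KRT18 (3661 and 4427 CPM). Of 11 tested, 6 were higher and 2 lower, and some were nearly silent in the vector control. GPA33 went from 0.0524 to 12.3 CPM and LGALS4 from 0.455 to 12.8 CPM. CDX2 went from 77.0 to 164 CPM and CDH17 from 320 to 797 CPM, while CDH1 and KRT18 rose less. KRT19 fell from 1398 to 985 CPM and VIL1 from 507 to 441 CPM. The 10 fibroblast markers summed to 39.4 to 42.3 and 31.8 to 35.7 CPM, with COL1A2, DCN and THY1 at 0 in every library. Of 5 tested, 2 were higher and 2 lower, and these moved far apart: LUM went from 0.133 to 18.1 CPM and COL3A1 from 2.68 to 4.34, while PDGFRA went from 22.7 to 0.386 CPM and PDGFRB from 6.69 to 3.06. The 10 leukocyte markers summed to 44.4 to 48.6 and 63.9 to 67.2 CPM, with PTPRC, MS4A1 and NKG7 at 0. Of 5 tested, 3 were higher (CD68, LYZ and CSF1R) and 1 lower (CD14). The 7 endothelial markers summed to 0.833 to 1.42 and 2.39 to 2.67 CPM, with CDH5, KDR, TIE1, EMCN and CLDN5 at 0, and PECAM1 and VWF, the 2 tested, were higher. The part of these marker differences in the results was not tested.

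Wnt proteins are lipid-modified ligands that bind Frizzled receptors together with LRP5 or LRP6. Binding stops a complex of AXIN, APC and GSK3 from marking beta-catenin for destruction, and beta-catenin then enters the nucleus and switches on genes with TCF/LEF factors. The pathway maintains the stem cells of the intestinal crypt, and many of the genes it switches on, such as AXIN2, NKD1, NOTUM, ZNRF3 and RNF43, dampen it in turn. Most colorectal tumours carry a mutation in APC or another part of this route.

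Most of the Wnt genes that could be tested differed between the groups, in both directions. Of the 57, 47 passed the filter on low counts. With edgeR (quasi-likelihood fit, p adjusted by Benjamini and Hochberg over all 14640 tested genes, threshold 0.05), 14 were higher and 19 lower in the antisense-labelled libraries, 14 did not pass, and 10 were not tested. That is 70.2% of the tested members, against 55% of all tested genes in either direction (27.7% higher and 27.3% lower). As much of the transcriptome differed, a call alone sets a gene little apart. Of the tested members, 18 changed at least 2-fold (38.3%; 5 higher and 13 lower), against 14.9% of all tested genes (8.8% higher and 6.12% lower). Their groups did not overlap for 36 members (76.6%), against 62.7% of all tested genes. Among the 41 members whose mean log2 CPM reached 1, 32 were called (78.0%) against 58.1% of the 11990 genes at that level, and 17 changed at least 2-fold (41.5%) against 10.4%. The median log2 fold change was -0.21 over the tested members and 0.01 over all tested genes, and the median size of the change, whatever its sign, was 0.52 and 0.36. As the members were chosen with earlier results of these data known, these shares and medians cannot show whether the pathway differs more than other genes.

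By role, 1 of 8 tested ligand genes rose and 1 fell, with a median log2 fold change of -0.25. Of 12 receptors, 3 rose and 5 fell (median -0.24). The antagonists moved mostly down. Of 8 tested, 7 fell and 1 rose (median -1.22). Of the 4 genes of beta-catenin control, 2 rose and 1 fell (median 0.20), and of the 4 TCF/LEF factors 2 rose and 1 fell (median 0.20). Among 11 tested stem cell genes and targets, 5 rose and 4 fell (median -0.19). The shares called were 25% for ligands, 66.7% for receptors and 100% for antagonists. They were 75% for beta-catenin control, 75% for TCF/LEF factors and 81.8% for stem cell genes and targets. Over all tested genes, 55% were called (27.7% higher and 27.3% lower). With 4 to 12 tested genes per role, chosen with earlier results known, these shares cannot set a role apart. As these are bulk samples, fewer cells of a kind and less RNA per cell cannot be told apart.

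**Figure D1:**
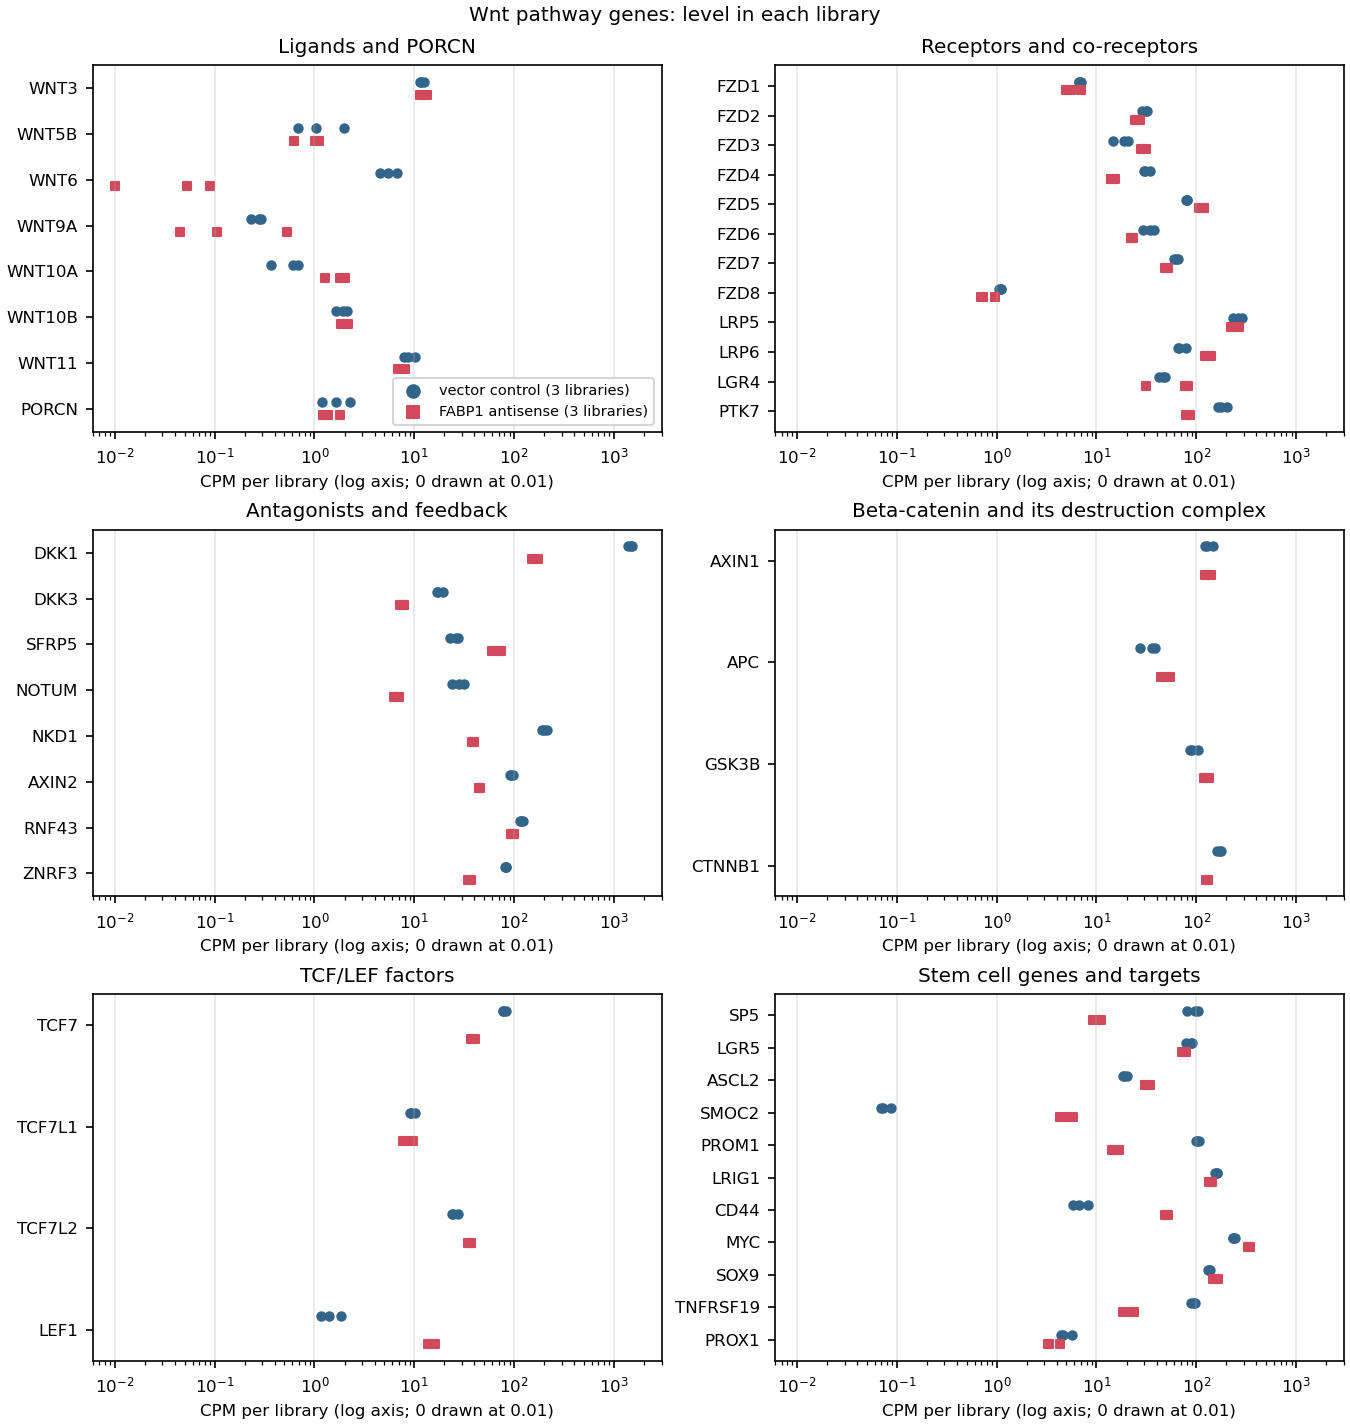
Level of each of the 47 tested Wnt pathway genes in every library, in CPM on a log axis, by role (circles, 3 vector control libraries; squares, 3 antisense-labelled libraries; a value of 0 is drawn at 0.01). The antagonists DKK1, NKD1 and NOTUM sit far lower in all 3 antisense-labelled libraries, while LEF1, CD44 and SMOC2 sit far higher.

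Among the ligand genes, WNT6 was nearly lost and WNT10A, which lies beside it in the genome, rose. WNT6 (gene ID 7475) was measured at 5.47, 4.53 and 6.68 CPM in the vector control against 0, 0.0894 and 0.0533 CPM in the antisense-labelled libraries. These levels rest on 315, 185 and 287 counts in the vector control and on 0, 4 and 3 counts in the antisense-labelled libraries. Every antisense-labelled library lay far under every control (log2 fold change -6.75, SE 0.43, edgeR adjusted p = 3.15e-06), a 108-fold lower level by the fitted value, which rests on 7 counts in all on the low side. WNT10A (80326) was low in both groups, at 0.550 ± 0.162 CPM in the vector control against 1.70 ± 0.38 CPM in the antisense-labelled libraries (mean ± SD, n = 3, as for all such values; log2 fold change 1.6, SE 0.31, edgeR adjusted p = 0.00221). The 80 counts of the vector control stood against 241, and the groups did not overlap. CYP27A1, the tested gene on the other side of WNT6, had a log2 fold change of 0.65.

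The other ligand genes did not pass the test. WNT3, next to WNT11 the most abundant ligand per transcript length, was at 11.8 ± 0.543 CPM in the vector control against 12.3 ± 0.954 CPM in the antisense-labelled libraries (log2 fold change 0.07, SE 0.09). Its neighbour WNT9B, a ligand outside the 57, was at 0.21 CPM in the control and 2.25 CPM in the antisense-labelled libraries, a rise of 3.40 on the log2 scale (SE 0.38). WNT11 had a log2 fold change of -0.28 with an SE of 0.12 (edgeR adjusted p = 0.082), and passed without vector control library 3 (log2 fold change -0.36, edgeR adjusted p = 0.0331). WNT9A ranged from 0.233 to 0.294 CPM across the vector control and from 0.0447 to 0.534 CPM across the antisense-labelled libraries. Its log2 fold change was -0.29 with an SE of 0.73, and leaving out antisense-labelled library 2 made it -1.75 (edgeR adjusted p = 0.04995). WNT5B, WNT10B and PORCN, the acyltransferase that attaches the lipid to Wnt proteins, had log2 fold changes of -0.44 (SE 0.41), 0.10 (SE 0.19) and -0.21 (SE 0.28). Of the ligands not tested, WNT2B had 13 counts over the vector control libraries and 9 over the antisense-labelled ones, WNT4 had 3 and 6, WNT7B had 18 and 12, and WNT5A had 0 in both. A count of 0 over a group allows a level of up to 0.0212 CPM in the vector control and of up to 0.0211 CPM in the antisense-labelled libraries (3 counts, counting error only).

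The Frizzled receptors were divided. FZD5 and FZD3 rose, and FZD4, FZD6, FZD7 and FZD2 fell. FZD4 (8322), which also serves as the receptor of the ligand norrin, had the largest change among them, at 30.4, 34.5 and 29.9 CPM in the vector control against 13.9, 13.8 and 15.3 CPM in the antisense-labelled libraries. All 3 antisense-labelled libraries lay under all 3 controls (log2 fold change -1.14, SE 0.09, edgeR adjusted p = 1.16e-05). FZD5 was at 80.1 ± 1.89 CPM in the vector control against 114 ± 7.80 CPM in the antisense-labelled libraries (log2 fold change 0.51, SE 0.07, edgeR adjusted p = 0.00041), FZD3 at 18.2 ± 3.10 CPM in the vector control against 29.2 ± 1.69 CPM in the antisense-labelled libraries (log2 fold change 0.68, SE 0.12) and FZD6 at 34 ± 4.16 CPM in the vector control against 22.6 ± 0.643 CPM in the antisense-labelled libraries (log2 fold change -0.59, SE 0.10). FZD7 fell by 0.31 on the log2 scale (SE 0.07) and FZD2 fell by 0.26 on that scale (SE 0.08, edgeR adjusted p = 0.0226). The call of FZD2 was lost without vector control library 2 (log2 fold change -0.23, edgeR adjusted p = 0.0973), without antisense-labelled library 3 (-0.26, 0.0594) and without antisense-labelled library 4 (-0.22, 0.0809). FZD1 had a log2 fold change of -0.21 that did not pass, and one of -0.37 without antisense-labelled library 3 (edgeR adjusted p = 0.0467). FZD8 was near 1 CPM, and its groups did not overlap (log2 fold change -0.44, SE 0.25, edgeR adjusted p = 0.163).

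Of the LRP co-receptors, LRP6 was called and LRP5 was not. LRP6 rose in every antisense-labelled library, at 70.4 ± 6.67 CPM in the vector control against 131 ± 8.66 CPM in the antisense-labelled libraries (log2 fold change 0.90, SE 0.09, edgeR adjusted p = 4.59e-05). LRP5 was at 259.9 ± 28 CPM in the vector control against 248 ± 24.8 CPM in the antisense-labelled libraries, with overlapping groups (log2 fold change -0.07, SE 0.10). Whether the 2 changes differ from each other was not tested. PTK7 (5754), a pseudokinase co-receptor known from planar cell polarity, was at 178, 164 and 202 CPM in the vector control against 86.8, 83.6 and 78.8 CPM in the antisense-labelled libraries. No antisense-labelled library reached 164 CPM, the lowest control (log2 fold change -1.13, SE 0.09, edgeR adjusted p = 1.21e-05). LGR4, a receptor of the R-spondins that strengthen Wnt signals, was at 45.9, 48.7 and 42.3 CPM in the vector control against 76.5, 31.3 and 83.3 CPM in the antisense-labelled libraries. Antisense-labelled library 3 lay under all controls and the other 2 above them, and no difference was called (log2 fold change 0.48, SE 0.30, edgeR adjusted p = 0.199). Without that library the log2 fold change was 0.81 (edgeR adjusted p = 0.000497).

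Of the 8 antagonists tested, every one was called, with no overlap between groups, and 7 of them fell. Over all tested genes, 55% were called, 62.7% had no overlap and 27.3% fell. They act at several levels. DKK1 binds LRP5 and LRP6, and NOTUM removes the lipid from Wnt proteins. ZNRF3 and RNF43 are membrane ubiquitin ligases that clear Frizzled receptors, NKD1 binds Dishevelled, and AXIN2 is a scaffold of the destruction complex. DKK1 (22943) had by far the highest level per transcript length of the 57 in the vector control. It was at 1523, 1472 and 1382 CPM in the vector control against 167, 149.9 and 173 CPM in the antisense-labelled libraries. Its highest antisense-labelled library was still far under its lowest control (log2 fold change -3.16, SE 0.08, edgeR adjusted p = 2.66e-08, 8.93-fold lower). NKD1 (85407) was at 189.7, 213 and 200.2 CPM in the vector control against 38.5, 39.3 and 37.9 CPM in the antisense-labelled libraries. The antisense-labelled libraries lay close together and far under the controls (log2 fold change -2.38, SE 0.07, edgeR adjusted p = 4.60e-08, 5.21-fold lower). NOTUM (147111) was at 28.2, 23.7 and 31.4 CPM in the vector control against 6.99, 6.42 and 6.27 CPM in the antisense-labelled libraries. Here too each antisense-labelled library was under each control (log2 fold change -2.08, SE 0.12, edgeR adjusted p = 1.53e-06, 4.23-fold lower).

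The remaining antagonists that fell did so by smaller amounts. ZNRF3 (84133) was at 80.3, 83.8 and 83.6 CPM in the vector control against 36.2, 34.6 and 36.6 CPM in the antisense-labelled libraries. The groups were well apart (log2 fold change -1.21, SE 0.07, edgeR adjusted p = 1.36e-06, 2.31-fold lower). AXIN2 (8313), a gene widely used as a readout of beta-catenin activity, was at 90.5, 96.4 and 93.7 CPM in the vector control against 45.6, 44.7 and 45 CPM in the antisense-labelled libraries. Its libraries differed little within each group (log2 fold change -1.05, SE 0.06, edgeR adjusted p = 2.54e-06, 2.07-fold lower). RNF43, the partner of ZNRF3, fell less, with 118 ± 3.77 CPM in the vector control against 96.9 ± 4.05 CPM in the antisense-labelled libraries (log2 fold change -0.28, SE 0.07, edgeR adjusted p = 0.00625). DKK3 (27122), a divergent member of the Dickkopf family, was at 16.9, 17.5 and 19.2 CPM in the vector control against 7.82, 7.67 and 7.25 CPM in the antisense-labelled libraries. It was lower in each antisense-labelled library (log2 fold change -1.24, SE 0.09, edgeR adjusted p = 6.85e-06).

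SFRP5 was the one tested antagonist that rose. The SFRP proteins are secreted and hold Wnt ligands away from their receptors. SFRP5 (6425) was at 26.4, 22.6 and 27.4 CPM in the vector control against 70.1, 73.9 and 59.6 CPM in the antisense-labelled libraries. Each antisense-labelled library was above each control (log2 fold change 1.41, SE 0.11, edgeR adjusted p = 9.83e-06, 2.66-fold higher). Among the antagonists not tested, APCDD1, a membrane inhibitor of Wnt receptors, had 6 counts over the vector control libraries and 37 over the antisense-labelled ones. It entered the test and counted as higher once vector control library 2, 3 or 4 or antisense-labelled library 3 was left out, which made 2 antagonists higher in place of 1. With all libraries and no filter on low counts it did not pass, and SFRP5 remained the 1 antagonist that was higher. DKK4 had 11 and 23 counts, SFRP4 had 28 and 22, SFRP1 had 0 and 5, and WIF1 had 0 in both groups.

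**Figure D2:**
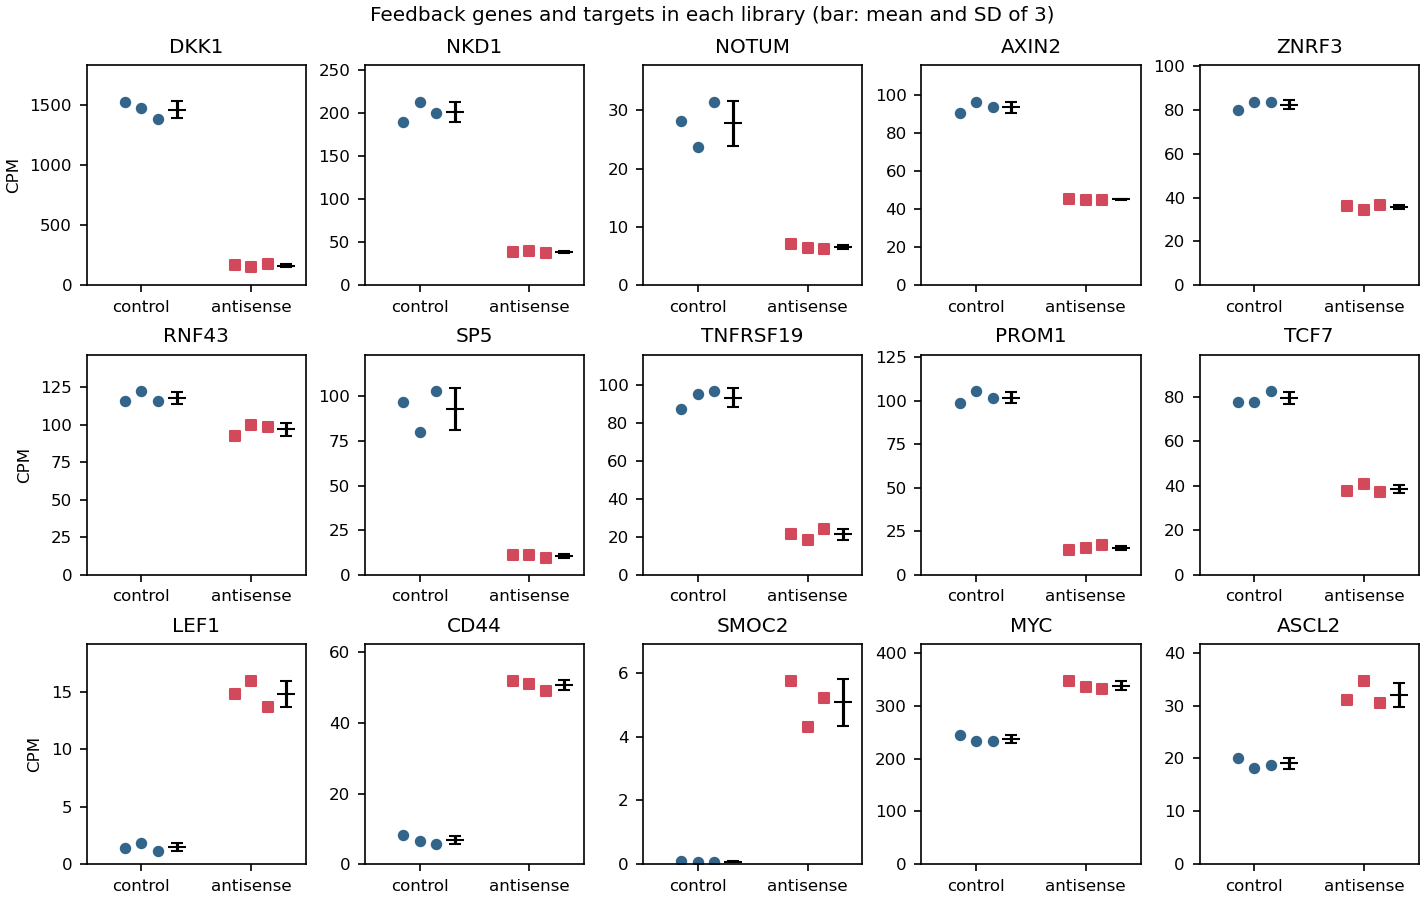
CPM of 15 feedback genes, TCF/LEF factors and targets in each library, on linear axes from 0 (circles, vector control; squares, antisense-labelled; bar and whiskers, mean and SD of 3 libraries). In each panel the groups do not overlap, with DKK1 falling from 1459 to 163 CPM and LEF1 rising from 1.48 to 14.8 CPM.

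Among the genes that control beta-catenin, the changes were small. CTNNB1 (1499), which encodes beta-catenin, was at 172, 177 and 161 CPM in the vector control against 132, 130.5 and 126 CPM in the antisense-labelled libraries. The antisense-labelled libraries were all lower (log2 fold change -0.40, SE 0.07, edgeR adjusted p = 0.00108). APC, the tumour suppressor of the destruction complex, rose (33.9 ± 5.68 CPM in the vector control against 49.5 ± 5.18 CPM in the antisense-labelled libraries, log2 fold change 0.55, SE 0.13), as did the kinase GSK3B (93.8 ± 9.07 CPM in the vector control against 126 ± 7.86 CPM in the antisense-labelled libraries, log2 fold change 0.43, SE 0.09). AXIN1, the scaffold that AXIN2 resembles, had overlapping groups at 132 ± 13.1 CPM in the vector control against 129.7 ± 9.98 CPM in the antisense-labelled libraries (log2 fold change -0.03, SE 0.09).

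The TCF/LEF factors moved in opposite directions, TCF7 down and LEF1 up. TCF7 (6932) was at 77.7, 77.8 and 82.4 CPM in the vector control against 37.8, 40.6 and 37.2 CPM in the antisense-labelled libraries. All antisense-labelled libraries were under all controls (log2 fold change -1.04, SE 0.07, edgeR adjusted p = 4.73e-06, 2.06-fold lower). LEF1 (51176) was at 1.41, 1.86 and 1.16 CPM in the vector control against 14.8, 16 and 13.7 CPM in the antisense-labelled libraries. The lowest antisense-labelled library was several times the highest control (log2 fold change 3.33, SE 0.16, edgeR adjusted p = 6.70e-07, 10.1-fold higher). TCF7L2, the form most tied to the intestine, rose less (25 ± 1.93 CPM in the vector control against 35.8 ± 1.25 CPM in the antisense-labelled libraries, log2 fold change 0.52, SE 0.08), and TCF7L1 did not pass (9.51 ± 0.612 CPM in the vector control against 8.80 ± 1.08 CPM in the antisense-labelled libraries, log2 fold change -0.11). Per kilobase of the longest transcript, the order in the vector control was TCF7 (26.0 CPM per kb), TCF7L2 (6.25), TCF7L1 (3.20) and LEF1 (0.425), with no overlap between neighbours in the order. In the antisense-labelled libraries it was TCF7 (12.6), TCF7L2 (8.96), LEF1 (4.26) and TCF7L1 (2.97), again with no overlap between neighbours, so LEF1 had passed TCF7L1.

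The stem cell genes and targets moved in both directions. SP5, a transcription factor gene known to be switched on by Wnt, and DKK1 had the largest falls of the 47 tested genes after WNT6. The RefSeq promoter windows (GRCh38.p14, 250 bases before the start) of these are shown with that of LEF1, which rose, because TCF/LEF factors bind a short motif. It was searched on both strands in 4 forms that differ in the last letters, namely CTTTGAA, then the form CTTTGAT, then the form CTTTGTA and the form CTTTGTT, and matches are in capitals. The DKK1 window (chr10:52314031-52314280, plus strand) holds CTTTGAA and, downstream of it, CTTTGTT, starting 95 and 76 bases before the start. The SP5 window (chr2:170715087-170715336, plus strand) holds 3 matches at 148, 109 and 84 bases, of which the first and the third are the form CTTTGAA on the opposite strand and the middle one is the form CTTTGAT. The LEF1 window (chr4:108166302-108166551, minus strand) holds no match. A single window was kept per gene, so any other start of LEF1, DKK1 or SP5 was not searched.
DKK1: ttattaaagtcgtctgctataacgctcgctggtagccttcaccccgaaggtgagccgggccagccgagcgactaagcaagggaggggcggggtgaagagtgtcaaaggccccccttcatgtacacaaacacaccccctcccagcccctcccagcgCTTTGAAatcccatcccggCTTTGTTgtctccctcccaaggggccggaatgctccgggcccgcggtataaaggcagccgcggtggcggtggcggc
SP5: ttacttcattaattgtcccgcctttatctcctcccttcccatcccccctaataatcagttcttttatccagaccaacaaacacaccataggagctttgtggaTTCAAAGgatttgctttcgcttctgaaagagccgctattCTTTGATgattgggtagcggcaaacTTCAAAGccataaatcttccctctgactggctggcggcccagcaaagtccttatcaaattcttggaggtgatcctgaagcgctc
LEF1: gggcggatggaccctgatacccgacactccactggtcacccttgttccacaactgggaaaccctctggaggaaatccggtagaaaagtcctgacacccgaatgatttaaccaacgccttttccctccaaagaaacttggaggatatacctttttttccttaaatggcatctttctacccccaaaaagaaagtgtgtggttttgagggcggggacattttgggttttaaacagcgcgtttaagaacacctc

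A window was found for 37 of the 57 genes, and 3 held a match, namely DKK1, SP5 and OLFM4 (8.11%). The window of WNT6, which fell most, held no match, and AXIN2, NKD1, NOTUM and ZNRF3 had no window. The share was 12.1% of all 27305 promoter windows and 7.74% of the 11490 windows of tested genes. By call, 2 of 11 windows of genes that fell held a match, 0 of 9 of those that rose, 0 of 10 of those that did not pass and 1 of 7 of those not tested. A match describes the letters only, and these shares do not set the genes apart from other tested genes.

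SP5 (389058) was at 96.6, 80 and 103 CPM in the vector control against 11, 10.9 and 9.26 CPM in the antisense-labelled libraries. The antisense-labelled libraries were all several times lower (log2 fold change -3.17, SE 0.12, edgeR adjusted p = 1.38e-07, 8.99-fold lower). PROM1 (8842), which encodes the surface protein CD133, was at 98.7, 105 and 101 CPM in the vector control against 14.4, 15.2 and 16.8 CPM in the antisense-labelled libraries. It was far lower in each antisense-labelled library (log2 fold change -2.72, SE 0.08, edgeR adjusted p = 4.79e-08, 6.58-fold lower). TNFRSF19 (55504), a receptor also called TROY and a marker of crypt stem cells, was at 87.7, 95.7 and 96.8 CPM in the vector control against 21.5, 18.5 and 24 CPM in the antisense-labelled libraries. The groups were widely separated (log2 fold change -2.13, SE 0.10, edgeR adjusted p = 6.41e-07, 4.37-fold lower).

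CD44, SMOC2, ASCL2 and MYC moved the other way. CD44 (960), the receptor of hyaluronan and a marker of crypt cells, was at 8.13, 6.69 and 5.80 CPM in the vector control against 51.9, 51 and 49.1 CPM in the antisense-labelled libraries. All antisense-labelled libraries were far above the controls (log2 fold change 2.88, SE 0.12, edgeR adjusted p = 2.71e-07, 7.34-fold higher). SMOC2 (64094), a secreted matrix protein found in crypt stem cells, was at 0.0868, 0.0735 and 0.0699 CPM in the vector control against 5.76, 4.29 and 5.21 CPM in the antisense-labelled libraries. Every antisense-labelled library was far above every control. In the vector control these levels rest on 5, 3 and 3 counts, 11 in all, against 722 in the antisense-labelled libraries (log2 fold change 5.99, SE 0.26, edgeR adjusted p = 2.97e-07, 63.3-fold by the fitted value). ASCL2, a transcription factor of crypt stem cells, rose, with 19 ± 0.978 CPM in the vector control against 32 ± 2.31 CPM in the antisense-labelled libraries (log2 fold change 0.75, SE 0.08). MYC (4609), the growth regulator, was at 245, 233 and 233 CPM in the vector control against 347, 336 and 332 CPM in the antisense-labelled libraries. Every antisense-labelled library was higher (log2 fold change 0.51, SE 0.06, edgeR adjusted p = 0.000147, 1.43-fold).

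LGR5 (8549), the defining receptor of crypt stem cells, was at 88.5, 91.3 and 79.5 CPM in the vector control against 72.3, 77.1 and 78.7 CPM in the antisense-labelled libraries. The antisense-labelled libraries all lay under the controls, by little, and the difference did not pass (log2 fold change -0.19, SE 0.08, 95% interval -0.36 to -0.01, edgeR adjusted p = 0.0681). It passed without vector control library 4 (log2 fold change -0.24, edgeR adjusted p = 0.0266). PROX1, a homeobox factor, also missed the threshold with no overlap (log2 fold change -0.42, SE 0.17, edgeR adjusted p = 0.0623), and passed without antisense-labelled library 4 (-0.57, 0.0262). LRIG1, which restrains growth factor receptors, fell by 0.19 on the log2 scale (SE 0.06, edgeR adjusted p = 0.029), and SOX9, a crypt transcription factor, rose by 0.23 on that scale (SE 0.07, edgeR adjusted p = 0.023). The call of LRIG1 was lost without any single library other than vector control library 2: without vector control library 3 (log2 fold change -0.18, edgeR adjusted p = 0.0507, and so on in that order) or 4 (-0.19, 0.0582), or antisense-labelled library 2 (-0.19, 0.0799), 3 (-0.21, 0.0606) or 4 (-0.17, 0.0954). That of SOX9 was lost without vector control library 2 (log2 fold change 0.20, edgeR adjusted p = 0.0810) or antisense-labelled library 3 (0.20, 0.0924) or 4 (0.21, 0.0694). OLFM4, a marker of intestinal stem cells, was not tested, with 6 counts over the vector control libraries and 24 over the antisense-labelled ones.

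**Figure D3:**
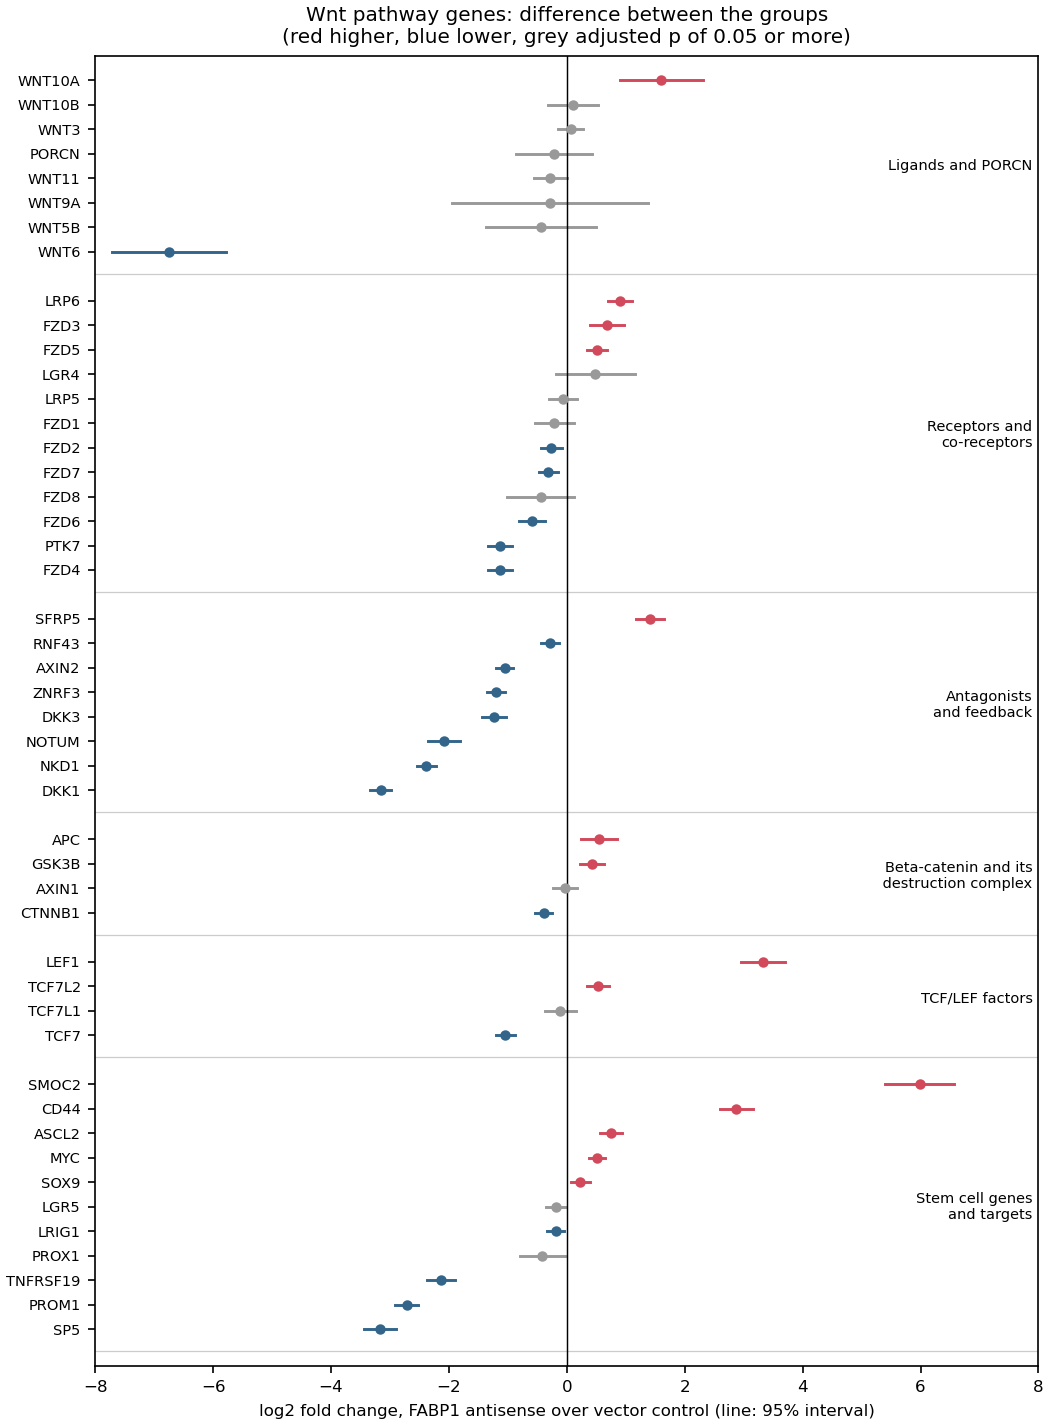
Log2 fold change of the 47 tested genes, antisense-labelled over vector control, by role (line, 95% interval; red, higher; blue, lower; grey, adjusted p of 0.05 or more). All antagonists except SFRP5 lie left of 0, while the other roles have points on both sides.

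Levels of different genes were compared only per kilobase of the longest transcript. In the vector control 24 of the 57 genes reached 10 CPM per kb, and in the antisense-labelled libraries 20 did. DKK1 was at 815 and 91.3 CPM per kb and MYC at 100.2 and 143.1, so the order of these genes was reversed between the groups. The ligands were low: WNT11 (4.63 and 3.82), WNT3 (3.51 and 3.66) and WNT6 (3.27 in the vector control) were the highest, and the rest were under 1. The ranges of WNT11 and WNT3 overlapped in the antisense-labelled libraries, and those of WNT3 and WNT6 in the vector control. Among receptors LRP5 (50.4 and 48.2) and PTK7 (42.5 and 19.4) led, with overlapping ranges in the vector control and separate ones in the antisense-labelled libraries. The leading Frizzled gene was FZD7 in the vector control (16.3, against 14.5 for FZD2 and 11.9 for FZD5). In the antisense-labelled libraries it was FZD5 (17.0, against 13.1 for FZD7 and 12.2 for FZD2). The library ranges of FZD7 and FZD2 overlapped in the antisense-labelled libraries, and those of the leading gene and the next did not in either group. SFRP5 came after DKK1, AXIN2 and RNF43 among the tested antagonists in the vector control (13.9) and directly after DKK1 in the antisense-labelled libraries (36.9). When median transcript lengths were used, SFRP5 and ZNRF3 exchanged places in the vector control.

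**Figure D4:**
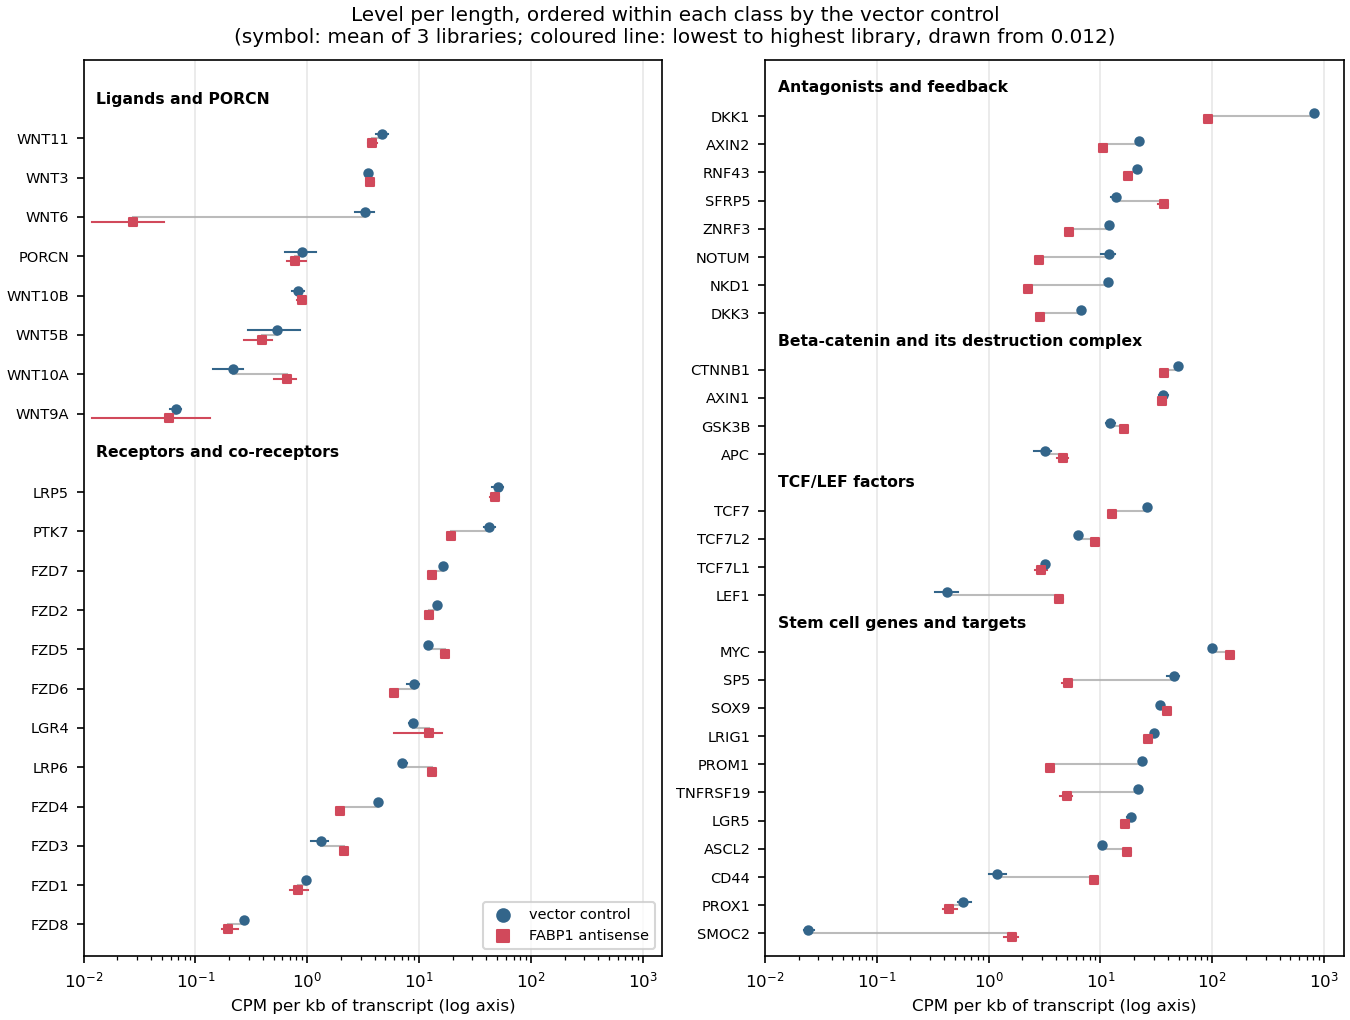
CPM per kilobase of the longest transcript for the 47 tested genes, on a log axis, ordered within each role by the vector control (circles and squares, mean of 3 libraries per group; coloured line, lowest to highest library, drawn from 0.012; grey line joins the groups). DKK1 is the highest in the vector control, at 815 CPM per kb, and MYC in the antisense-labelled libraries, at 143.1.

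The rest of the pathway was described with 129 genes from textbook lists, which moved in both directions. Of 103 tested, 38 rose, 35 fell and 30 did not pass (70.9% called, against 55% of all tested genes, of which 27.7% were higher and 27.3% lower). The median log2 fold change was -0.01. These lists too were chosen with earlier results of these data known, so their shares carry the same limit. Of 4 tested ligand and secretion genes, 2 rose. They were WNT9B and WLS, the carrier that brings Wnt proteins to the surface (32.1 ± 1.75 to 81.8 ± 2.68 CPM, log2 fold change 1.35, SE 0.07). The R-spondins RSPO1, RSPO2, RSPO3 and RSPO4 had 0 counts in every library. Of 10 tested receptors and co-receptors, 0 rose and 8 fell. The largest falls were those of ROR1, a receptor of WNT5A (13.5 ± 1.65 to 1.04 ± 0.173 CPM, log2 fold change -3.69, SE 0.16), of GPC3, a cell-surface proteoglycan (745 ± 31 to 136 ± 4.24 CPM, log2 fold change -2.46, SE 0.07), and of KREMEN2, a partner of DKK1 (3.69 ± 0.660 to 1.41 ± 0.246 CPM, log2 fold change -1.38, SE 0.21). Of 5 tested genes listed as secreted or membrane antagonists, 4 rose and 1 fell. TRABD2A, a protease that trims Wnt proteins, rose (1.62 ± 0.474 to 38.4 ± 2 CPM, log2 fold change 4.59, SE 0.18), as did IGFBP4, a binding protein of insulin-like growth factors (29 ± 3.02 to 102 ± 9.58 CPM, log2 fold change 1.81, SE 0.10), and BAMBI, a decoy receptor of the TGF-beta family, fell (39.6 ± 4.99 to 8.09 ± 1.06 CPM, log2 fold change -2.29, SE 0.13). These antagonists moved mostly up, where those among the 57 moved mostly down.

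Inside the cell, 7 of 21 tested relay genes rose and 6 fell, with log2 fold changes of 1.99 for DACT2, 0.98 for FRAT2 and -0.95 for CAPRIN2. Of 19 nuclear cofactors, 3 rose and 8 fell. The kinase HIPK2 (log2 fold change -1.90) and TLE1, a co-repressor of TCF/LEF factors (log2 fold change -1.67), had the largest falls, and the co-repressor CTBP2 rose (log2 fold change 0.86). Among 28 tested targets outside the 57, 18 rose and 7 fell. The largest changes at a mean log2 CPM of 1 or more were those of the homeobox gene MSX2 (26.2 ± 1.15 to 6.19 ± 0.355 CPM, log2 fold change -2.08), the growth factor BMP7 (112 ± 5.58 to 31 ± 1.16 CPM, log2 fold change -1.85) and the ion transporter SLC12A2 (51.6 ± 4.01 to 184 ± 12 CPM, log2 fold change 1.84). Of 16 genes of planar cell polarity, the branch of Wnt signalling without beta-catenin, 4 rose and 5 fell. PRICKLE2 fell most (19 ± 1.97 to 0.728 ± 0.0899 CPM, log2 fold change -4.70, SE 0.14), CELSR2 fell by 1.62 on the log2 scale, and SCRIB rose by 1.34 on the log2 scale. The shares called were 61.9% for relay genes, 57.9% for cofactors, 89.3% for targets and 56.25% for planar polarity, against 55% of all tested genes. All but that of the targets lay near the share of all tested genes.

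The neighbours of each gene in RefSeq order were examined to show whether the surrounding stretch of the genome moved with it. For 49 of the 57 genes, a running median was taken over 50 genes on either side whose mean log2 CPM reached 3. It ranged from -0.49 at WNT4 to 0.50 at LGR5. In 27 of the 29 called genes that have one, the gene's own change was larger in size than that of its stretch. The exceptions, in log2 fold change against running median, were LRIG1 (-0.19 against 0.22) and SOX9 (0.23 against -0.24), which moved against their stretch. A median over 100 genes varies less than a single gene, and called genes were selected for a difference. Such a count is therefore high almost in advance, and it cannot show whether members moved apart from their stretch. DKK1 lay in a stretch that was mostly higher (median log2 fold change 0.28, 80 of 100 neighbours higher), and NKD1, TCF7 and PROM1 likewise fell where the medians were 0.18, 0.23 and 0.14. LGR5 lay in the stretch with the highest median, where 88 of 100 neighbours were higher. ZNRF3 fell within a stretch that was mostly lower (median log2 fold change -0.32, 86 of 100 lower), next to XBP1 (log2 fold change -0.90) and KREMEN1 (log2 fold change -0.48).

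The nearest tested genes fell along with some members. By log2 fold change, SP5 lay between LINC01124 (-4.10) and ERICH2 (-2.99), and DKK1 between PRKG1-AS1 (-2.77) and LINC01468 (-0.65). On the same scale NOTUM lay between PYCR1 (-0.63) and ASPSCR1 (-0.55). The labels and file headers do not say if reads were counted by strand, so reads of a gene and of an overlapping or antisense partner could not be told apart. SMOC2 lay beside DACT2, which also rose (log2 fold change 1.99). Other members had a neighbour that went the other way. PROM1 (-2.72) lay between FGFBP1 (9.79) and TAPT1 (-0.33), and CD44 (2.88) between PDHX (0.26) and SLC1A2 (-2.62). Over all tested genes, 27.7% were higher and 27.3% lower. The neighbours named were picked after their values were seen, and how many moved with their member was not counted.

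**Figure D5:**
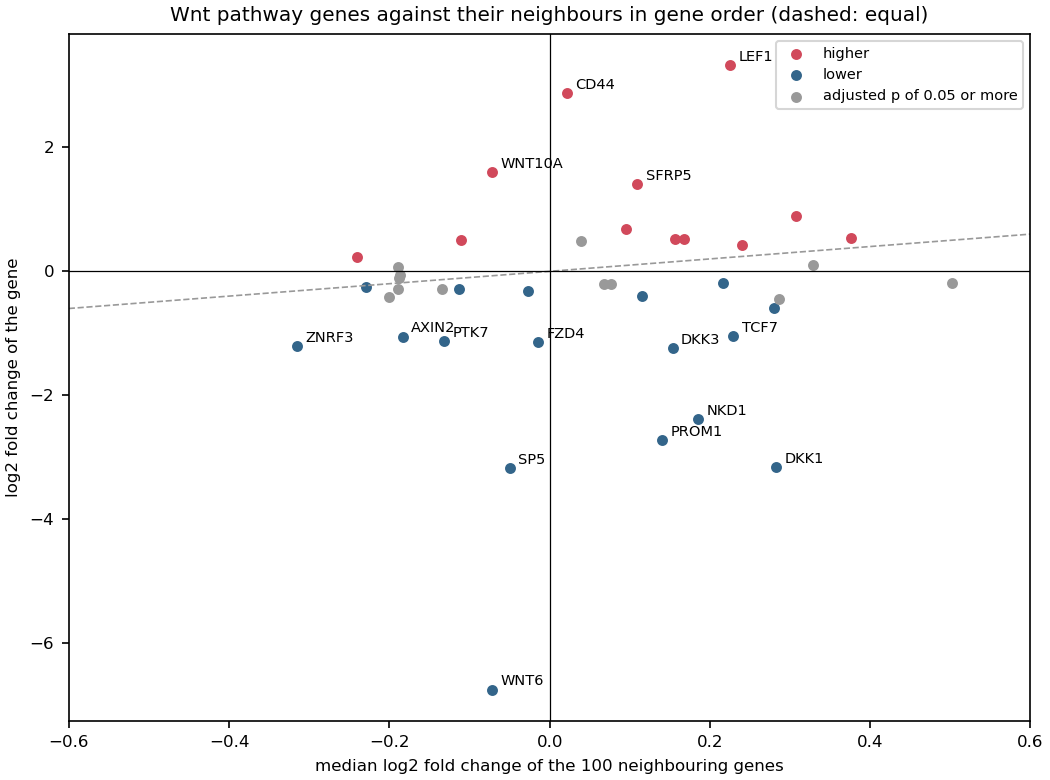
Log2 fold change of each tested gene that has a running median (vertical axis) against the median log2 fold change of the 100 neighbouring genes (horizontal axis; dashed line, equal values; red, higher; blue, lower; grey, adjusted p of 0.05 or more). DKK1, NKD1, PROM1 and TCF7 lie below 0 where the neighbours' median is above 0, and ZNRF3 and AXIN2 lie below 0 where it is too.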

How the data were processed

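RNA of Caco-2 cells was sequenced in 3 libraries per group from a stranded kit, per the labels' protocols. The submitters' processing notes list HISAT2 2.1.0, StringTie 1.3.4d, Bowtie2 2.3.4.1, Trimmomatic 0.38, bcl2fastq and build GRCh37, with no role for each. The deposited table gives read counts per gene that the authors had not normalized, and 12 other per-library columns were not used. Column headers number libraries 2, 3 and 4, and the labels number replicates 1 to 3, so columns were matched to groups by name, and libraries carry their header number.

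These counts were fitted with edgeR 4.0.16 in R 4.3.3: filterByExpr (14640 of 27685 genes kept), TMM scaling, quasi-likelihood test, Benjamini-Hochberg adjustment over all tested genes, threshold 0.05. CPM used TMM effective library sizes. The SE of a log2 fold change is its size over the square root of F. The biological coefficient of variation was 11.8%, and within a group, counts of 2 libraries varied beyond counting error (chi-square over degrees of freedom 14.3 to 41.2). Transcript lengths were those of GENCODE, joined through RefSeq accessions, and promoters and gene order from RefSeq (GRCh38.p14, 99.7% of tested genes placed, no coordinates mixed with the authors' build). Other steps used limma 3.58.1, DESeq2 1.42.0, Python 3.11.15 (numpy 2.4.6, pandas 2.3.3, matplotlib 3.10.9). The fit was tested on simulated data. It recovered 36.6% of 82 genes changed 1.5-fold, 82.8% of 58 changed 2-fold and 90% of 60 changed 4-fold. There were 8 false calls among 14440 unchanged genes. Far fewer genes were changed in the simulation than were called in the data. A gene that did not pass may still differ by a small fold.

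The members and lists were chosen with earlier results of these data known. Library values are given for members that were called, changed at least 2-fold, had a mean log2 CPM of at least 1 and did not overlap, and for FABP1, CTNNB1, AXIN2, LGR5, MYC and LEF1. Other pathway lists name up to 3 called genes at that level. WNT9B, SOSTDC1, TRABD2B and genes named as neighbours fall outside this rule and were named after their values were seen. Alternatives covered scaling, filters, tests, leaving out each library, a block on the header number, transcript length and the width of the gene window.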

Additional observations from a re-analysis of the deposited data

How the results depend on the processing

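All 47 tested members kept their direction and their side of the threshold under DESeq2 size factors, library size only, no filter, DESeq2 and limma-voom, as did the 46 that passed a filter of 1 CPM in 3 libraries. These scalings moved the median of all genes by at most 0.01 on the log2 scale. Tested against a fold of 1.2 (glmTreat), 2657 genes were higher and 2498 lower in all, against 4062 and 3992, and 3 receptors were lower in place of 5. FZD2, FZD7, RNF43, LRIG1 and SOX9 were no longer called. Leaving out each library in turn gave 3510 to 4108 genes higher and 3449 to 3951 lower in all, 13 to 15 members higher and 18 to 19 lower, 1 to 2 ligands lower and 1 to 2 antagonists higher. The second antagonist was APCDD1, and the second ligand WNT11 or WNT9A. Only members with no call changed sign, by leaving out vector control library 4 (WNT5B, PORCN, LRP5, AXIN1), antisense-labelled library 3 (WNT9A) or antisense-labelled library 4 (WNT3, WNT9A, LRP5, AXIN1). Over the main fit and all alternative fits, with each library left out among them, their log2 fold changes ranged from -0.0015 to 0.11 for WNT3, -0.73 to 0.0595 for WNT5B, -1.75 to 0.20 for WNT9A, -0.41 to 0.041 for PORCN, -0.14 to 0.013 for LRP5 and -0.087 to 0.052 for AXIN1. The cause was not tested.

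Libraries with the same header number did not deviate together (correlations of 0.03, -0.08 and -0.09, against -0.03 to 0.11 for other pairs). In groups of 3 libraries, deviations from the group mean are tied to each other. The correlations therefore cannot show whether libraries of the same header number were prepared together. With a replicate block on that number, 3355 genes were higher and 3306 lower in all, and 13 members higher and 17 lower. FZD2 (log2 fold change -0.26, edgeR adjusted p = 0.0707), LRIG1 (-0.19, 0.116) and SOX9 (0.23, 0.0742) were no longer called. The FABP1 difference was 0.17 with the block. With 25 genes on either side in place of 50, 10 members in place of 8 had a running median beyond 0.3 in size. With median transcript lengths, 21 genes in place of 20 reached 10 CPM per kb in the antisense-labelled libraries. Depth limits WNT6 and SMOC2, whose low group rests on 7 and 11 counts, and the 10 members not tested. The intervals cover the spread between 3 libraries only.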

Other observations

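Of the 7 targets outside the 57 that fell, MSX1 and BMP4 were picked out after their values were seen. The homeobox gene MSX1 was at 44, 39.4 and 36.5 CPM in the vector control against 13.7, 16.1 and 13.2 CPM in the antisense-labelled libraries. All 3 antisense-labelled libraries were lower (log2 fold change -1.48, SE 0.11, edgeR adjusted p = 7.44e-06). The growth factor BMP4 was at 116, 43.8 and 116 CPM in the vector control against 36.7, 38.4 and 37.5 CPM in the antisense-labelled libraries. Vector control library 3 lay well under the other controls and above every antisense-labelled library (log2 fold change -1.30, SE 0.31, edgeR adjusted p = 0.00669).

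Another pair of Wnt targets that were nearly silent in the vector control rose from a low level, and these too were picked out after their values were seen. MMP7, a matrix protease, had 6 counts over the vector control libraries and 219 over the antisense-labelled ones. CEMIP, a hyaluronan-binding protein, had 3 and 281 counts. Both passed the edgeR test, and the few counts on the low side leave the size of the change imprecise.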
